A study of Mus musculus with 9 samples.

Results

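The comparison described here is that of liver macrophages after 10 weeks of CDA-HFD with liver macrophages of mice on a normal diet (ND). A gene entered if 3 or more libraries held it at 1 FPKM or above, which was so for 11783 of the 24312 genes in the table, and the group means rest on 6 of the 9 libraries. FPKM is the level of a gene scaled for the length of its transcript and for the depth of the library. Genes were thus chosen by level alone, not by how they changed.

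CDA-HFD is a high-fat diet without choline and with free amino acids in place of protein, low in methionine, and it produces steatohepatitis with fibrosis in mice. Male wild-type C57BL/6J mice received ND or CDA-HFD, and no transgene or Cre entered these groups. Macrophages were sorted from perfused, collagenase-digested livers as Ly6C-low, F4/80-positive cells after hepatocytes had been spun down, and a sort of this kind takes resident and recruited macrophages together. The groups held 3 libraries each, named here ND 1 to 3 and 10w 1 to 3, and 3 further libraries after 7 weeks of CDA-HFD (7w 1 to 3) entered the model for its estimate of spread. Each library is described as coming from a different mouse.

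Kupffer cells are the resident macrophages of the liver. They sit in the sinusoids, take up particles, bacteria, lipoproteins and senescent red cells from portal blood, recycle iron and make complement proteins, and their identity depends on signals from endothelial, stellate and parenchymal neighbours. In steatohepatitis resident cells are lost and monocytes from the blood enter the liver and become macrophages, some of which take on Kupffer-like genes while others become lipid-associated macrophages around fat-laden hepatocytes and scars. In bulk samples such as these, fewer cells of a type and less RNA per cell cannot be told apart.

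Before the values, 6 promoters are shown because their genes stand for 3 of the patterns described further on: genes of lipid-associated macrophages that rose, genes of amino acid supply that rose, and a receptor of resident Kupffer cells that fell. The sequences are from RefSeq (GRCm38.p6), 250 bases before to 50 bases after the start site, 5′ to 3′ on the strand of the gene, and the start sites of other annotations can differ. Capitals mark the letters TGANTCA, which hold the AP-1 sites TGACTCA and TGAGTCA, in Gpnmb (chr6:49036268-49036567, plus strand), Trem2 (chr17:48346151-48346450, plus strand) and Emp1 (chr6:135362681-135362980, plus strand). They mark TGATGNAA, the core of the amino acid response element bound by ATF4, in Asns (chr6:7693160-7693459, minus strand) and Slc7a11 (chr3:50443564-50443863, minus strand), and TGCTGAC, a part of the recognition element of Maf factors, in Timd4 (chr11:46810549-46810848, plus strand).
Gpnmb: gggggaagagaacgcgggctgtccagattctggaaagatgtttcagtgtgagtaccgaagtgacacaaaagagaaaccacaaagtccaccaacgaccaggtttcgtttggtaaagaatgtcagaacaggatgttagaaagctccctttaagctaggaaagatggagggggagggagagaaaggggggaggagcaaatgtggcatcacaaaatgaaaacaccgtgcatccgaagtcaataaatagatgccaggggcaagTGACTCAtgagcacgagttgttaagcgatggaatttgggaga
Trem2: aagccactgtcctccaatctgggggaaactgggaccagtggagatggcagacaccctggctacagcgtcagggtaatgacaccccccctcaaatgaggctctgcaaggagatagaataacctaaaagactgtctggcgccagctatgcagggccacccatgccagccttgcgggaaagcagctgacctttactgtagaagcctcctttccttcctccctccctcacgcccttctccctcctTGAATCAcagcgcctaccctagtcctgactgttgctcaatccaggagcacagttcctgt
Emp1: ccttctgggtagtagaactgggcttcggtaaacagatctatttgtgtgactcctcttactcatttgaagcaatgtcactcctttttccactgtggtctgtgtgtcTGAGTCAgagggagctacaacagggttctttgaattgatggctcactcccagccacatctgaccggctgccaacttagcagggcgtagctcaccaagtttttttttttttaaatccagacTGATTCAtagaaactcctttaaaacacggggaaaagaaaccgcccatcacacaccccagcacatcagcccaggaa
Asns: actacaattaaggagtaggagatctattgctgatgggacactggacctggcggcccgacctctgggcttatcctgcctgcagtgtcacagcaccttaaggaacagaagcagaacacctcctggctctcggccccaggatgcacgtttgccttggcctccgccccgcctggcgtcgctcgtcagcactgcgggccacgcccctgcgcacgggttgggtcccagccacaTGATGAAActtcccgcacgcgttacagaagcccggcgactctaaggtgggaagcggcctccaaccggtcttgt
Slc7a11: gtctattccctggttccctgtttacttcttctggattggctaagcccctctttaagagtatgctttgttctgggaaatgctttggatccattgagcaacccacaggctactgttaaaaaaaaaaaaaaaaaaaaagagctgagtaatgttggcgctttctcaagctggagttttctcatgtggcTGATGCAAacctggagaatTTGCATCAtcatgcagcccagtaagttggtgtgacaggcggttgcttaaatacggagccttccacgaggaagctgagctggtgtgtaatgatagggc
Timd4: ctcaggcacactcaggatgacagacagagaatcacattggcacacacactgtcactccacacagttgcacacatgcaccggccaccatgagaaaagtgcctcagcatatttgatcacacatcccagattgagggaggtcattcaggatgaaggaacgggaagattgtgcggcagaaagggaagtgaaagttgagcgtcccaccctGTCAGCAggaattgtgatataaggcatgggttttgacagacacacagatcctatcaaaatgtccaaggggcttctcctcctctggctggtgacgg

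Both strands were searched for 15 motifs, and the 3 motifs and 6 promoters were chosen after the search. Of all 27025 promoters of this length 7.93% held TGANTCA, 4.06% held TGATGNAA and 4.58% held TGCTGAC. Within the windows the match in Gpnmb began 9 bases after the start site, the match in Trem2 9 bases before it and the pair in Emp1 145 and 25 bases before it. The match in Trem2 and the second in Emp1 have another base in the middle than those AP-1 sites. In Asns the match began 23 bases before the start, in Slc7a11 66 and 47 bases before it, and in Timd4 45 bases before it. Only 9007 of the tested genes (76.4%) had a promoter in the table, and motif shares were not compared between changed and unchanged genes. A match is a string of letters and does not show that a factor was bound there.

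The sort was checked against its markers. Adgre1, which encodes F4/80, lay at 252, 265 and 257 FPKM in ND and at 198, 204 and 191 FPKM at 10 weeks, and Cd68, a lysosomal glycoprotein of macrophages, between 286 and 313 FPKM in ND and between 283 and 292 FPKM at 10 weeks. Adgre1 fell (log2 difference −0.38, or −0.61 after correction for the upper limit given below). Ly6c2, a gene of the Ly6C antigen by which the gate chose low cells, was at 45.5 to 66.5 FPKM at 10 weeks and under 2 FPKM in ND. Estimated depths ran from 5459744 to 5874473 reads for ND and from 5879404 to 6191581 reads for 10 weeks, so that a single read on 1 kb of transcript was worth 0.162 to 0.183 FPKM. Duplicate reads had been removed from single-end data, so each start position on a strand can count once, and the upper limit that follows was estimated at 340 to 366 FPKM in ND and 323 to 340 FPKM at 10 weeks. Small falls of genes close to this limit move with the limit itself, and large changes of abundant genes are compressed by it. An exact 0 was read only as listed at 0, since 19 tested genes in ND and 22 at 10 weeks were listed at 0 in 1 or 2 libraries and at 20 FPKM or more in another of the same group, and Gapdh, a gene that all cells use and that has many pseudogene copies, was listed at 0.697 to 1.18 FPKM in ND.

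Diet was the main difference among the 6 libraries. Their first principal component took up 71% of the variance and split them by diet, and replicates correlated across genes with r between 0.966 and 0.969 in ND and between 0.956 and 0.961 at 10 weeks (log2(FPKM + 1), genes are not independent replicates). The second component held 8.88% and set the 10-week libraries apart from each other, with 10w 1 at 32.6, 10w 2 at −5.17 and 10w 3 at −29.7.

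At 10 weeks 4706 of the 11783 genes differed from ND (limma, adjusted p below 0.05), which is 39.9%. Of these 2279 rose (19.3%) and 2427 fell (20.6%). The counts of the gene lists below are to be read against these shares. A change of at least 2-fold on the log2(FPKM + 1) scale was seen in 837 genes that rose (7.1%) and in 1050 that fell (8.91%), and one of at least 16-fold in 70 that rose and 22 that fell. The median change of the genes that rose was 0.67 and of those that fell −0.89 on the log2 scale, against −0.02 for all genes tested. Many calls were small, and 476 rises and 320 falls were under 1.25-fold. The share of genes called increased with level, from 23.7% of the genes whose higher group mean was 1 to 5 FPKM to 65.5% of those at 250 FPKM or more, so a low gene that was not called may still differ. The groups did not overlap for 5975 genes (50.7%), with the 10-week libraries above in 24.1% and below in 26.6% of all genes tested. An exact permutation test of 3 against 3 libraries cannot give a p below 0.1, and the p-values below come from the model across all genes.

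**Figure D1:**
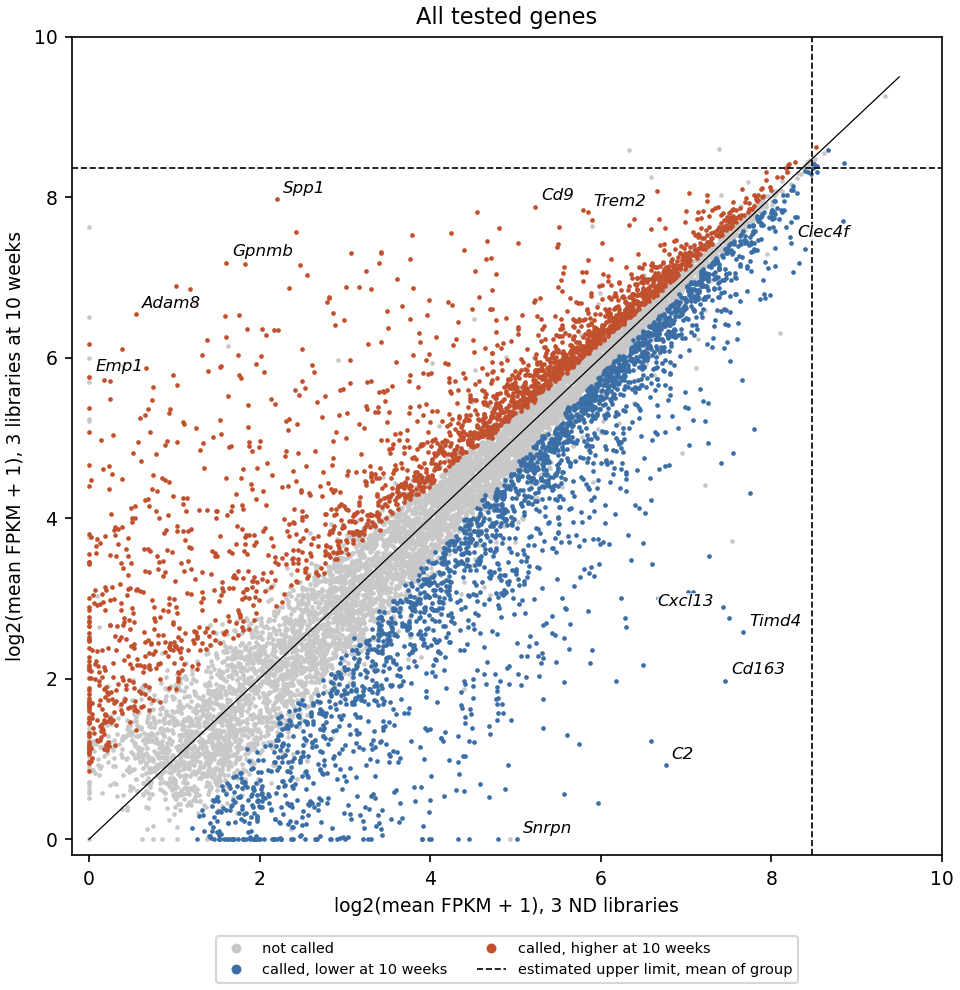
Mean level of each tested gene at 10 weeks of CDA-HFD (vertical axis) against ND (horizontal axis), both as log2(mean FPKM + 1) of 3 libraries, with called genes in colour and the estimated upper limit as dashed lines. Points far above the diagonal such as Spp1 and Adam8 rose, points far below it such as C2, Cd163 and Timd4 fell, and the most abundant genes crowd under the limit.

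The largest rise was that of Spp1, which encodes osteopontin, a secreted matrix protein of scar-associated macrophages (chr5:104435118-104441050 in GENCODE M21, GRCm38). It was at 1.26, 8.65 and 0.9 FPKM in ND and at 256, 260 and 237 FPKM at 10 weeks, a difference of 6.19 on the log2(FPKM + 1) scale (SE 0.60, adjusted p = 0.000318). The lowest 10-week library lay far above the highest ND library, and the ND libraries differed among themselves more than those at 10 weeks. Spp1 is a gene the study itself chose to follow, as are Trem2, Cd9, Clec4f, Timd4 and Egr2, so their changes are not independent evidence of a direction.

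Adam8, a membrane metalloprotease of activated leukocytes (chr7:139978932-139992562), was listed at 0 in ND 1 and ND 2, at 1.38 FPKM in ND 3, while the 10-week libraries held 88.5, 102 and 87.4 FPKM (log2 difference 6.13, SE 0.27, adjusted p = 1.78e-08). Osm encodes oncostatin M, a cytokine of the interleukin 6 family, and lay at 3.39, 0.423 and 0 FPKM in ND against 130, 113 and 100 FPKM. Kcnn4, a calcium-activated potassium channel, went from 0.388, 0.926 and 1.78 FPKM to 124, 125 and 104 FPKM. None of these 3 genes exceeded 3.39 FPKM in an ND library, and each was at 87.4 FPKM or more in every 10-week library. Gpnmb, a glycoprotein of lysosome-rich macrophages whose promoter is printed above, was at 0.473, 4.21 and 1.42 FPKM in ND and at 142, 146 and 145 FPKM at 10 weeks (log2 difference 5.78, SE 0.39). Emp1, an epithelial membrane protein of the PMP22 family, had a listed value of 0 in each ND library and was at 60.8, 47.9 and 50.4 FPKM at 10 weeks, so no fold is given for it. Its groups, like those of Gpnmb, were far apart.

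Further large rises were those of S100a4 (a calcium-binding protein of motile cells), Chil3 (a chitinase-like protein of recruited myeloid cells), F13a1 (the clotting factor XIII A chain), Clec4e (Mincle, a receptor for dead cells and mycobacterial lipid), Dusp5 (a phosphatase of ERK), F7 (clotting factor VII) and Anxa1 (annexin A1, which limits neutrophil entry). Their log2 differences ran from 5.27 for Anxa1 to 5.65 for S100a4. Clec4e was at 1.61, 1.17 and 1.34 FPKM in ND and at 108, 111 and 85.7 FPKM at 10 weeks. F13a1 spread more at 10 weeks, with 70, 52.9 and 33.1 FPKM in the 3 libraries, and still did not overlap with ND. Chil3 has near-identical copies, and how reads were split among them is not known.

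The largest fall was that of C2, a serine protease of the classical complement pathway (chr17:34862604-34898265), from 104, 115 and 103 FPKM in ND to 1.91, 0.696 and 0.0668 FPKM at 10 weeks (log2 difference −5.96, SE 0.64, adjusted p = 8.93e-05). Cd163, the receptor for haemoglobin bound to haptoglobin (chr6:124304656-124330527), was at 173, 184 and 168 FPKM in ND and at 2.03, 0.888 and 5.89 FPKM at 10 weeks (−5.69, SE 0.47). Ptgis, prostacyclin synthase, was at 106, 88.4 and 91.3 FPKM in ND and at 1.67, 0.987 and 1.37 FPKM. These genes passed from strong expression to under 6 FPKM in every 10-week library. Cxcl13, the chemokine that draws B cells, fell from 180, 199 and 162 FPKM to 1.34, 1.59 and 14.3 FPKM, and Timd4, a receptor for phosphatidylserine on dying cells, from 200, 207 and 202 FPKM to 2.21, 4.65 and 8.10 FPKM. In both, and in Cd163, 10w 3 was the highest of the 10-week libraries, though far under every ND library.

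Further large falls were those of Abhd11os, Sdc2 (a heparan sulfate proteoglycan), Snrpn (an imprinted splicing protein), Gbp2b (a guanylate-binding protein), Kcnj16 (a potassium channel), Mup3 (a major urinary protein made by hepatocytes), St6galnac2 (a sialyltransferase), Mrap (an accessory protein of the ACTH receptor) and Lysmd2, with log2 differences from −5.54 for Abhd11os to −4.27 for Lysmd2. Snrpn was at 31.8, 29.3 and 32.9 FPKM in ND and listed at 0 in all 3 10-week libraries, and Mrap was at 21.3, 32.6 and 9.03 FPKM in ND and likewise listed at 0. Snrpn shares its transcript with Snurf, Abhd11os is antisense to Abhd11, and Gbp2b and Mup3 have near-identical relatives, so the split of reads for these genes is uncertain. Mup3 moved with the other hepatocyte transcripts given further on.

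**Figure D2:**
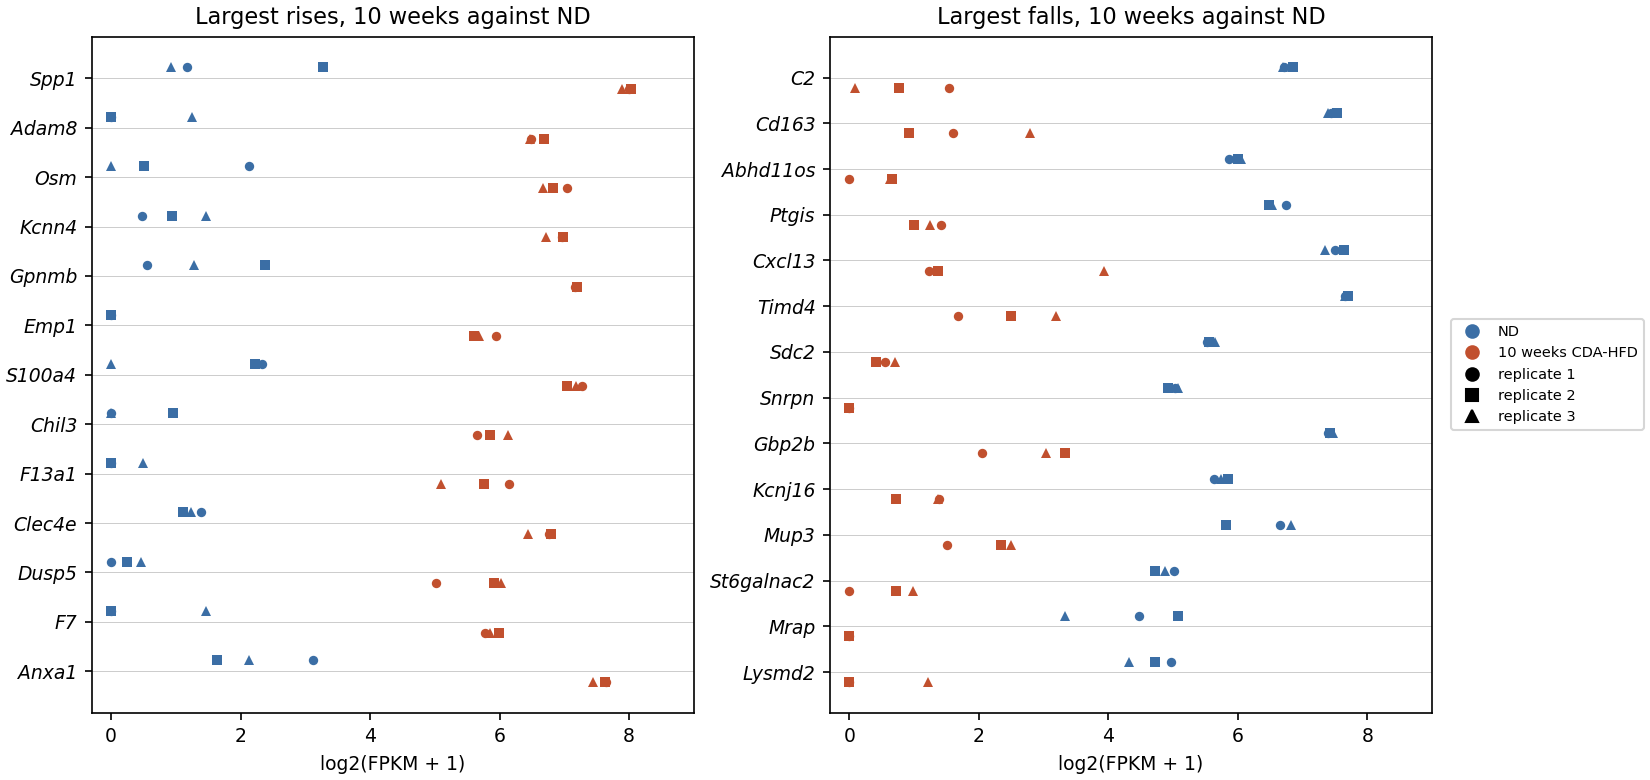
Level of 13 genes with the largest rises (left) and of the 14 with the largest falls (right) in each library, as log2(FPKM + 1), with ND in blue, 10 weeks in red and the replicate number as the symbol. In every row the groups are apart, and Cd163, Cxcl13 and Timd4 have their highest 10-week point in replicate 3.

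Of 21 genes of Kupffer cell identity 20 fell and none rose (median log2 difference −1.21, or −2.03 after correction for the upper limit, against −0.02 for all genes). They did not fall alike. By the share of the ND mean kept at 10 weeks, with edges set after the values were seen, 5 genes kept under 10%, namely Ptgis (1.41%), Cd163 (1.68%), Timd4 (2.46%), Kcna2 (5%) and C6 (8.85%). Another 3 kept 10 to 40%, namely Cdh5 (12.5%), Marco (14.5%), a scavenger receptor for bacteria, and Stab2 (15.6%), a scavenger receptor for hyaluronan. The remaining 12 that fell kept 40 to 70%, from Siglec1 (40.5%), a sialic acid receptor, to Cd5l (69.4%), an apoptosis inhibitor secreted by macrophages. These shares are of FPKM without the correction for the upper limit. With it all 12 fell further, Fcna by 2.21 on the log2 scale, so the edge at 40% does not hold there.

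Clec4f, a lectin used to define Kupffer cells in mice, belonged to the last group, at 292, 303 and 307 FPKM in ND and 165, 162 and 186 FPKM at 10 weeks (log2 difference −0.81, SE 0.08, adjusted p = 3.29e-05). Vsig4, the complement receptor CRIg, was at 307, 329 and 322 FPKM in ND and at 144, 132 and 158 FPKM at 10 weeks. Both were close to the upper limit in ND, where their true levels may be higher, and with the correction the differences were −1.46 for Clec4f and −2.09 for Vsig4. After that correction the 8 genes that kept under 40% still lay lower, with differences from −6.14 to −2.79, than the 12 that kept more, with −2.21 to −1.05. The 21st gene, Clec4g, was at 13.7, 24.2 and 28.1 FPKM in ND and at 45.4, 34.2 and 90.1 FPKM at 10 weeks and was not called (adjusted p = 0.0664), though it was called as higher when 10w 2 was left out, under the replicate block and with no filter on low values. The library 10w 3 held the highest 10-week value for 17 of the 21 genes, and their summed level was 1658 and 1689 FPKM in 10w 1 and 10w 2 and 2089 FPKM in 10w 3, against 4185 to 4354 FPKM in ND.

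**Figure D3:**
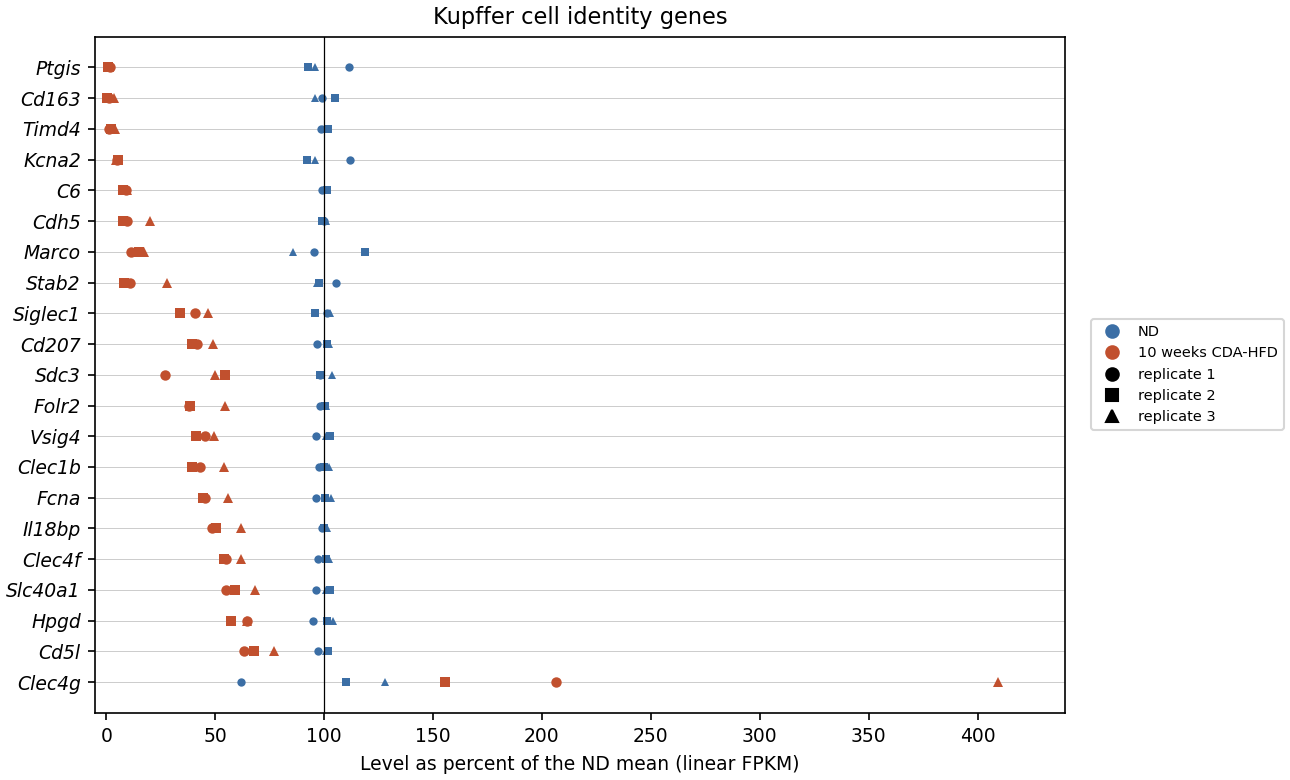
Level of the 21 Kupffer identity genes in each ND (blue) and 10-week (red) library as a percentage of the ND mean (horizontal axis, linear), the genes ordered by the mean share kept. The lowest 5 genes lie near 0, a group of 12 lies between 40 and 70% by mean, and Clec4g lies above 100%. The values are not corrected for the upper limit.

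Transcription factors tied to Kupffer cells changed less and in both directions, with 5 of 16 higher and 7 lower, or 4 lower in a fit without trend and robust. Rxra, the partner of LXR and PPAR receptors, fell most, from 78.0, 71.5 and 83.8 FPKM to 17.7, 18.7 and 32 FPKM (log2 difference −1.77, SE 0.19, adjusted p = 1.2e-05). Tfec and Maf fell by 0.91 and 0.55, and Nr1h3, which encodes LXR alpha, by 0.36, from 214, 218 and 230 FPKM to 162, 171 and 184 FPKM. Nr1h3 thus kept most of its level. Of the Kupffer identity genes that fell, 12 kept 40 to 70% of theirs, 3 kept 10 to 40% and 5 kept under 10%. Rbpj, through which Notch acts, rose from 6.81, 6.03 and 5.96 FPKM to 21, 20.9 and 15.4 FPKM (1.46, SE 0.18), and Runx1 and Klf4 rose by 1.18 and 1.55. Without ND 1 or without ND 2 only 3 of the 16 were called as higher, because Id1 and Lyl1 lost their calls.

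Among 18 tested genes of BMP, TGF-beta and Notch signalling, the signals that the Kupffer niche sends, 3 rose and 6 fell. These shares, 16.7% and 33.3%, stood against 19.3% and 20.6% of all tested genes, so rises were no more frequent than over all genes. The falls moved with the fit. They numbered 4 of 17 without ND 1, ND 2 or ND 3, 4 of 14 with a filter of 5 FPKM and 8 of 18 with the replicate block. Dtx4, a Notch-responsive ubiquitin ligase, rose from 10.3, 11.5 and 8.43 FPKM to 35.9, 49.6 and 43.6 FPKM (log2 difference 1.99, SE 0.15), and Tgfbr1, the type I receptor for TGF-beta, from 45.9, 39.5 and 44.2 FPKM to 98.3, 97.2 and 75.9 FPKM. On the BMP side the receptor Acvrl1 fell by 0.76 and the signal transducer Smad1 by 0.67, and Bmpr1a, a type I BMP receptor, was at 4.15, 5.42 and 6.61 FPKM in ND and listed at 0 in all 10-week libraries. Eng, a coreceptor of the same family, rose by 0.97.

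Genes of lipid- and scar-associated macrophages moved the other way, with 23 of 28 higher and 4 lower (median 2.43). Besides Spp1, Gpnmb and Emp1, Cd9, a tetraspanin, rose from 34.3, 39.9 and 35.5 FPKM to 234, 241 and 230 FPKM (log2 difference 2.65, SE 0.06, adjusted p = 1.12e-11). Trem2, the lipid-sensing receptor that names these cells, rose from 59.8, 37.5 and 72.1 FPKM to 224, 228 and 220 FPKM (2.02, SE 0.21). Cd63, a tetraspanin of lysosomes, went from 22.2, 21.7 and 23.3 FPKM to 222, 229 and 221 FPKM (3.27, SE 0.05). These genes were even across the 3 animals at 10 weeks, and Trem2 already had a clear level in ND. The 4 falls were small ones of abundant genes, and for Ctsl and Ctsb, both cathepsins, they were 0.31 and 0.20. Apoe and Ftl1 fell by 0.12 and 0.11 and lost their calls when ND 2, ND 3, 10w 1 or 10w 3 was left out, leaving 2 falls, as did the correction for the upper limit and a fit without trend and robust.

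Of 14 tested monocyte genes 11 rose and none fell (median 3.46). Ly6c2, the antigen of inflammatory monocytes, was at 1.42, 1.5 and 0 FPKM in ND and at 45.5, 50.8 and 66.5 FPKM at 10 weeks (log2 difference 4.90, SE 0.40), although the gate selected Ly6C-low cells and although this gene has a close relative in Ly6c1, which stayed under 5 FPKM. Thbs1, thrombospondin 1, rose from 1.46, 1.67 and 1.73 FPKM to 79.8, 80 and 60.7 FPKM. Without 10w 3, one of the 14 was called as lower. The summed level of the list was 320 to 349 FPKM in ND and 1188 to 1246 FPKM at 10 weeks.

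Genes of patrolling monocytes, the Ly6C-low monocytes that crawl along vessels, were split, with 5 of 11 higher and 5 lower. Ace, angiotensin-converting enzyme, was at 1.19, 1.41 and 1.98 FPKM in ND and at 30.6, 29.8 and 28.4 FPKM at 10 weeks (log2 difference 3.61, SE 0.24). Pglyrp1, a peptidoglycan recognition protein, rose by 4.09 and Spn, the sialophorin CD43, by 3.53. In contrast Cd300e, an activating receptor, fell from 158, 168 and 146 FPKM to 61.4, 71.0 and 75.9 FPKM (−1.17, SE 0.12), and Adgre4, an adhesion receptor related to F4/80, from 169, 181 and 171 FPKM to 111, 111 and 115 FPKM. Ace, Pglyrp1 and Spn were low in ND, while Cd300e and Adgre4 were strongly expressed there.

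Core macrophage genes fell a little, with 9 of 16 lower and 1 higher and a median of −0.09. Csf1r, the receptor for the macrophage growth factor, went from 274, 288 and 288 FPKM to 227, 234 and 221 FPKM (log2 difference −0.32, SE 0.03, adjusted p = 5.31e-06), and the difference was −0.56 after correction for the upper limit. Mertk, a receptor for dying cells, was well under that limit and fell from 102, 115 and 99.6 FPKM to 41.6, 64.4 and 63.2 FPKM (−0.91, SE 0.14). Cd14, the coreceptor for endotoxin, rose by 0.25, or 0.54 after the same correction. A fit without trend and robust called 5 falls in place of 9.

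The study scored its single cells with a set of genes for hepatic lipid-associated macrophages and another for monocyte-derived Kupffer cells. They were read here as plain lists and are not independent of the study. The caption of the study's figure gives the larger set, of 527 genes, as lipid-associated and the smaller as Kupffer-like. Here it is the reverse: the set of 86 genes, which holds Spp1 and Gpnmb, was taken as lipid-associated. All 84 tested genes of the hepatic lipid-associated macrophage score rose (median 2.69), 67 of them at least 2-fold. Of the 512 tested genes of the score for monocyte-derived Kupffer cells 438 fell and 3 rose (median −0.66), and the 3 that rose were Cd36, a scavenger receptor for lipids, Rgs2 and Txnrd1. Txnrd1 lost its call without ND 2, ND 3 or 10w 2. Adcy4, an adenylate cyclase of the same score, fell from 138, 132 and 134 FPKM to 6.46, 5.43 and 10.4 FPKM.

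Immediate early genes, which cells switch on within minutes of a stimulus and also during tissue digestion, were higher at 10 weeks for 18 of 24 and lower for none (median 1.03). Egr2, a zinc finger factor of the early growth response family, was at 1.60, 2.28 and 11.4 FPKM in ND and at 64.7, 58.4 and 54.9 FPKM at 10 weeks (log2 difference 3.67, SE 0.54, adjusted p = 0.00126). ND 3 stood above the other ND libraries for Egr2, and the summed level of the list was 1517, 1554 and 1957 FPKM in ND against 2762 to 2824 FPKM at 10 weeks. Fosb, an AP-1 subunit, rose from 1.81, 2.57 and 1.89 FPKM to 58.6, 32.5 and 44.4 FPKM, and Socs3, a feedback inhibitor of cytokine receptors, from 10.5, 11.5 and 9.13 FPKM to 81.2, 84.1 and 80.9 FPKM. The share of digestion in these levels was not tested.

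Among profibrotic and matrix factors 20 of 30 rose and 6 fell (median 1.73). Vegfa, the vascular growth factor, was listed at 0 in every ND library and at 41.1, 32.1 and 24.9 FPKM at 10 weeks, and Adam8, Osm and Thbs1 of the same list are given above. Pdgfc, a platelet-derived growth factor, went the other way, from 32.7, 24.9 and 34.6 FPKM to 5.6, 4.05 and 8.37 FPKM (log2 difference −2.21, SE 0.29). Igf1, a growth factor of tissue repair, and Tgm2, a crosslinking enzyme, fell by 0.39 and 0.46. The falls of Mmp9, Timp2 and Hbegf each lost the call in more than 1 of the fits with a library left out, with the direction kept. Without ND 1 or without ND 3 only 3 falls were called.

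Inflammatory cytokines and chemokines rose for 11 of 27 and fell for 4. Cxcl2, which attracts neutrophils, rose from 10.0, 9.41 and 18.9 FPKM to 204, 176 and 172 FPKM (log2 difference 3.81, SE 0.23), and its relative Cxcl3 was listed at 0 in ND and at 15.8, 22.7 and 22.2 FPKM at 10 weeks. Ptgs2, the inducible cyclooxygenase, was listed at 0 in ND 2 and ND 3 and at 0.0431 FPKM in ND 1, while the 10-week libraries held 30.5, 21.2 and 12.1 FPKM. Ccl24, an eosinophil chemokine, fell from 179, 171 and 187 FPKM to 78.5, 81.6 and 92.4 FPKM (−1.08, SE 0.06), and Il18 by 0.41. Chemokines for neutrophils were thus among those that rose, and chemokines for B cells (Cxcl13) and eosinophils among those that fell.

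Markers of alternative activation were split, with 6 of 18 higher and 8 lower. Pparg, a lipid-sensing nuclear receptor, rose from 19.1, 21.4 and 23.8 FPKM to 90.2, 99.5 and 99.2 FPKM (log2 difference 2.12, SE 0.10, adjusted p = 1.41e-08), and Arg1, arginase, from 10.4, 5.79 and 8.17 FPKM to 27.9, 26.1 and 26.3 FPKM. Mrc1, the mannose receptor, fell from 150, 160 and 146 FPKM to 39.7, 38.9 and 48.6 FPKM (−1.82, SE 0.10), and Cd209f, a lectin of the DC-SIGN cluster, by 4.24. The list thus did not move as 1 unit, and without ND 2 or without 10w 3 only 5 falls were called, as Ccl17 and Socs2 were among those lost.

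Lipid uptake and storage genes rose for 11 of 23 and fell for 5. Fabp5, a fatty acid binding protein, was at 7.02, 6.96 and 7.27 FPKM in ND and 118, 114 and 118 FPKM at 10 weeks (log2 difference 3.87, SE 0.08, adjusted p = 1.12e-11), with hardly any spread in either group. Fabp4 rose by 2.27 and Olr1, a receptor for oxidized lipoprotein, by 3.52. The receptors that are high on resident cells fell, Scarb1 from 185, 198 and 189 FPKM to 129, 125 and 127 FPKM, Msr1 by 0.47 and Lrp1 by 0.39. Pnpla2, the triglyceride lipase ATGL, fell by 0.45. G0s2, its inhibitor, was listed at 0 in ND 1 and ND 2 and at 0.571 FPKM in ND 3, while the 10-week libraries held 22.6, 20.9 and 87.8 FPKM, where 10w 3 stood far above the other libraries.

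Cholesterol genes fell into opposite sets. Of 24 tested genes of cholesterol biosynthesis 16 rose and 1 fell (median 0.75). Sqle, squalene epoxidase, went from 3.07, 5.87 and 3.23 FPKM to 32.7, 39.8 and 27.7 FPKM (log2 difference 2.79, SE 0.21), and Fdft1, squalene synthase, from 3.67, 3.29 and 5.21 FPKM to 22.5, 20.6 and 17.5 FPKM. Tm7sf2, a sterol reductase, was the 1 that fell, by 1.05. Among 20 LXR targets and efflux genes 4 rose (20%, against 19.3% of all tested genes) and 9 fell (45%, against 20.6%). Abca1, the efflux pump, fell from 46.1, 50 and 36.5 FPKM to 28.8, 28.5 and 22.8 FPKM (−0.70, SE 0.14), and Scd1, the stearoyl-CoA desaturase, from 47.7, 51.0 and 42.3 FPKM to 6.68, 5.35 and 7.14 FPKM (−2.70, SE 0.22).

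The apolipoprotein genes Apoc1 and Apoc2, which lie in 1 cluster with Apoe and are targets of LXR, moved in opposite directions. Apoc1 was at 447, 456 and 474 FPKM in ND and at 200, 191 and 232 FPKM at 10 weeks (log2 difference −1.15, SE 0.11, and −2.08 after correction for the upper limit). Apoc2, the activator of lipoprotein lipase, was at 91.6, 78.9 and 78.5 FPKM in ND and at 215, 215 and 203 FPKM at 10 weeks (1.34, SE 0.06). The libraries of the groups did not overlap for either gene. Apoc1 lay above the estimated limit in every ND library, where the correction held its values at 0.98 of the limit. The corrected difference thus depends on where the values were held, and its size cannot be read from it. In fatty acid synthesis 3 of 11 genes fell, among them Acly, ATP citrate lyase, by 0.50, and in fatty acid oxidation 6 of 24 rose and 6 fell, among them Cpt2, a carnitine palmitoyltransferase, by 0.57, while Slc25a20, the carnitine carrier, rose by 0.45. Without ND 3, or without trend and robust, only 3 of the oxidation genes were called as higher. The share of oxidation genes called in each direction, 25%, was near that of all tested genes (19.3% up and 20.6% down).

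Lysosomal genes were also split, with 11 of 36 higher and 14 lower, and the sizes differed between the directions. The balance turned with the scaling, with 15 higher and 10 lower after correction for the upper limit and 13 higher and 10 lower with trimmed-mean scaling. The rises included 4 of at least 2-fold, and no fall reached 2-fold. Ctsk, a cathepsin known from osteoclasts, was at 0.123, 0 and 0.529 FPKM in ND and at 26.3, 30.6 and 38.5 FPKM at 10 weeks (log2 difference 4.76, SE 0.24), and Atp6v0d2, a proton pump subunit also known from osteoclasts, at 0.295, 0 and 0.635 FPKM and at 24.2, 19.7 and 20.6 FPKM. Gla, an alpha-galactosidase, rose by 2.65. The falls were those of abundant hydrolases such as Man2b1 (log2 difference −0.42), Glb1 (−0.41) and Tpp1 (−0.39). After correction for the upper limit these differences were larger, from −0.54 for Man2b1 to −0.45 for Tpp1. A fit without trend and robust called 8 rises and 8 falls.

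Because the diet lacks choline and is low in methionine, genes that handle these nutrients and phosphatidylcholine were read as a group, and 3 of 29 rose and 10 fell. Sgms1, a sphingomyelin synthase that uses phosphatidylcholine, rose from 6.31, 3.59 and 6.16 FPKM to 42.5, 43.9 and 41.8 FPKM (log2 difference 2.81, SE 0.17, adjusted p = 1.3e-07). Pcyt1a, the rate-limiting enzyme of phosphatidylcholine synthesis from choline, rose from 21.7, 21.2 and 19.8 FPKM to 35.9, 36.9 and 36.0 FPKM (0.77, SE 0.13), and Lpcat1, which reacylates it, by 0.77. All 3 genes were apart from ND in every library. Pld1, a phospholipase that frees choline, fell by 1.39 and Aldh7a1, an aldehyde dehydrogenase, by 1.11. Gnmt and Bhmt, methyl transfer enzymes of hepatocytes, fell from 26.8, 7.16 and 15.4 FPKM to 1.36, 1.43 and 1.38 FPKM and from 8.46, 6.17 and 9.68 FPKM to 1.64, 1.91 and 3.40 FPKM. These last moved with the hepatocyte markers, which fell for 17 of 22 and whose part in them was not tested.

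Several genes of amino acid supply under the stress factor ATF4 rose. Slc7a11, the cystine transporter, was at 0.0753, 0 and 0.101 FPKM in ND and at 10, 14 and 8.36 FPKM at 10 weeks (log2 difference 3.45, SE 0.25), Asns, asparagine synthetase, was listed at 0 in ND and at 2.99, 9.06 and 7.28 FPKM, and Psat1, of serine synthesis, rose from 2.67, 4.66 and 2.41 FPKM to 23.6, 24.0 and 26.5 FPKM (2.63, SE 0.21). The promoters of the first pair are printed above. Sesn2, a stress-induced inhibitor of mTORC1 that is also a target of ATF4, fell from 93.5, 80.8 and 95.7 FPKM to 30.3, 23.0 and 24.3 FPKM (−1.77, SE 0.15). In the whole list of unfolded protein and ATF4 genes 9 of 25 rose and 6 fell, and 3 falls were called without ND 2, without 10w 3, with trimmed-mean scaling, after correction for the limit and without trend and robust. The chaperone Dnajc3 fell by 0.55 and Hsp90b1 by 0.22.

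Antioxidant and glutathione genes rose for 9 of 27 and fell for 6, or for 3 in a fit without trend and robust. Nqo1, a quinone reductase, was listed at 0 in ND 1 and ND 2 and at 0.542 FPKM in ND 3, while the 10-week libraries held 15.6, 25.4 and 18 FPKM. Srxn1, sulfiredoxin, rose from 40.4, 39.1 and 29.7 FPKM to 101, 120 and 91.2 FPKM (log2 difference 1.49, SE 0.12) and Prdx6, a peroxiredoxin that reduces phospholipid peroxides, from 32.2, 33.0 and 29.7 FPKM to 76.1, 79.8 and 76.7 FPKM. Nqo1, Srxn1 and Slc7a11 are known targets of Nrf2. Hmox1, another, fell from 259, 264 and 261 FPKM to 206, 221 and 214 FPKM (−0.29, SE 0.04, and −0.46 after correction for the upper limit), and Sod1 by 0.30.

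Hmox1 frees iron from heme, and iron and heme genes fell for 12 of 22 and rose for 4. Slc40a1, ferroportin, the iron exporter, fell from 285, 305 and 299 FPKM to 163, 176 and 202 FPKM (log2 difference −0.72, SE 0.06, adjusted p = 5.85e-06, and −1.29 after correction for the upper limit), Hfe by 0.45 and Ncoa4, which delivers ferritin for breakdown, by 0.46. Mt2, a metallothionein, rose by 1.61. Lcn2, which binds bacterial siderophores, was listed at 0 in ND and at 5.2, 2.61 and 2.51 FPKM at 10 weeks.

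Complement components fell for 11 of 14 and rose for 1 (median −0.80, or −1.32 after correction for the upper limit). Besides C2 and C6, C4b fell from 130, 127 and 130 FPKM to 10.3, 8.02 and 4.14 FPKM (log2 difference −4.01, SE 0.23, adjusted p = 8.28e-08). C4b has a near-identical copy next to it. C3, the protein on which all pathways meet, was the 1 that rose, from 45.1, 41.7 and 29.1 FPKM to 75.9, 86.6 and 80.3 FPKM (1.07, SE 0.25). Hepatocytes make these proteins as well, and the part of hepatocyte RNA was not tested.

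Complement receptors rose for 6 of 11 and fell for 2, Vsig4 and Cd55. Cd55, which breaks up the convertases, spread widely in ND at 36.1, 73.9 and 19.3 FPKM and lay at 2.01, 3.44 and 9.05 FPKM at 10 weeks (log2 difference −2.91, SE 0.55). Itgax, the alpha chain of complement receptor 4, rose from 6.27, 5.46 and 6.07 FPKM to 104, 105 and 98.5 FPKM (3.90, SE 0.09), Itgam, that of receptor 3, from 30.1, 35.9 and 20.2 FPKM to 95.8, 99.7 and 72.2 FPKM, and Cd93 from 1.53, 1.40 and 1.96 FPKM to 57.5, 55.6 and 54.8 FPKM. The integrin receptors thus rose where Vsig4, the receptor of resident cells, fell.

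Receptors and bridges for dying cells changed in both directions, with 7 of 20 higher and 8 lower. Timd4, Stab2, Mertk and Pros1, the bridge of Mertk, fell, Pros1 from 80.3, 85.9 and 84.3 FPKM to 38.8, 40.9 and 46.2 FPKM. Havcr2, the phosphatidylserine receptor TIM-3, rose from 6.33, 6.57 and 4.49 FPKM to 42.9, 46.1 and 46.3 FPKM (log2 difference 2.78, SE 0.18), and Mfge8, a bridge to integrins, from 0, 3.22 and 1.41 FPKM to 23.5, 24.0 and 23.3 FPKM (3.50, SE 0.42). Within the Tim family Timd4 fell and Havcr2 rose.

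Phagocytic and pattern recognition receptors rose for 12 of 31 and fell for 7. Clec4d and Clec4e, neighbouring lectins that pair on the cell surface, rose together, Clec4d from 5.25, 9.37 and 3.55 FPKM to 103, 116 and 102 FPKM (log2 difference 4.02, SE 0.24). Fcgr2b, the inhibitory Fc receptor, rose from 27.5, 25.4 and 28.1 FPKM to 196, 190 and 199 FPKM (2.81, SE 0.06), while Fcgr4, an activating one, fell from 218, 221 and 228 FPKM to 151, 164 and 175 FPKM (−0.45, SE 0.05). Tlr3 and Tlr4, receptors for double-stranded RNA and endotoxin, fell by 1.52 and 0.73, and Nod1 by 0.56.

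Adhesion genes were split evenly, with 9 of 24 higher and 9 lower. Sdc1 and Sdc2, both heparan sulfate proteoglycans of the syndecan family, moved in opposite directions. Sdc1 was at 1.01, 0.379 and 1.41 FPKM in ND and at 37.8, 46.5 and 35.8 FPKM at 10 weeks (log2 difference 4.44, SE 0.23), and Sdc2 was at 44.8, 46.0 and 49.0 FPKM in ND and at 0.466, 0.328 and 0.629 FPKM at 10 weeks (−5.02, SE 0.33). Alcam and the laminin receptor chain Itga6 rose by 4.34 and 3.55, and Itgb7, which pairs for homing to gut, and Itga9 fell by 1.56 and 1.37.

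Housekeeping groups shifted little but evenly. Of 30 ribosomal protein genes 28 rose and none fell, with a median of only 0.24, and of 30 proteasome genes 20 rose and 2 fell, with a median of 0.16. Without ND 3, 1 proteasome gene was called as lower, and a fit without trend and robust called 11 rises. Psmd14, a proteasome lid subunit, rose from 75.8, 80.7 and 81.4 FPKM to 117, 118 and 118 FPKM (log2 difference 0.56, SE 0.04), and Rps6 rose by 0.41. Ribosomal protein genes have many pseudogene copies. Glycolysis and hypoxia genes rose for 15 of 24 and fell for 2. Slc16a3, the lactate exporter, rose by 1.45 and Bnip3, a hypoxia gene of mitophagy, by 1.06, while the hexokinases Hk3, from 168, 168 and 173 FPKM to 92.7, 95.8 and 95.4 FPKM, and Hk1 fell.

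Other programmes had few calls or unstable ones. Oxidative phosphorylation had 6 of 28 genes higher and 2 lower, with 2 higher without ND 2 or without 10w 2, 3 higher without ND 3, and 1 lower without any of these or without 10w 1. The counts were 13 higher and 1 lower after correction for the upper limit, 10 and 1 with trimmed-mean scaling and 0 and 1 without trend and robust. Interferon response genes had 3 of 28 higher and 5 lower. For the interferon genes, 1 was called as higher without ND 1, ND 2 or 10w 3, and as lower 2 without ND 3 or without 10w 1 and 3 without 10w 2. A fit without trend and robust called 2 as lower, and one with no filter 3. Ifit3b fell by 1.01. Cell cycle genes had 6 of 29 higher, with 3 higher without 10w 3, and 1 lower, or 0 to 2 with a library left out, and Ccnb2 and Cdca8 rose by 0.83 and 0.77. MHC class II genes had 3 of 16 higher and 4 lower, 5 higher and 4 lower after correction for the upper limit, and 2 higher and 1 lower without trend and robust. The shares of 18.8% higher and 25% lower were near those of all tested genes, 19.3% and 20.6%. H2-Aa, a class II chain, was at 328, 331 and 348 FPKM in ND and 334, 342 and 332 FPKM at 10 weeks (log2 difference 0.00, SE 0.03). The 10-week values lay above the estimated limits of their libraries, 323, 340 and 327 FPKM. The ND values lay below theirs, 340, 361 and 366 FPKM. The correction held each 10-week value at a fixed share of its limit and called the gene as higher (limma, log2 difference 0.32, adjusted p = 0.00824). That call depends on where the values were held, so no rise of H2-Aa can be read from it. Cd86, a costimulatory molecule, fell by 0.45.

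**Figure D4:**
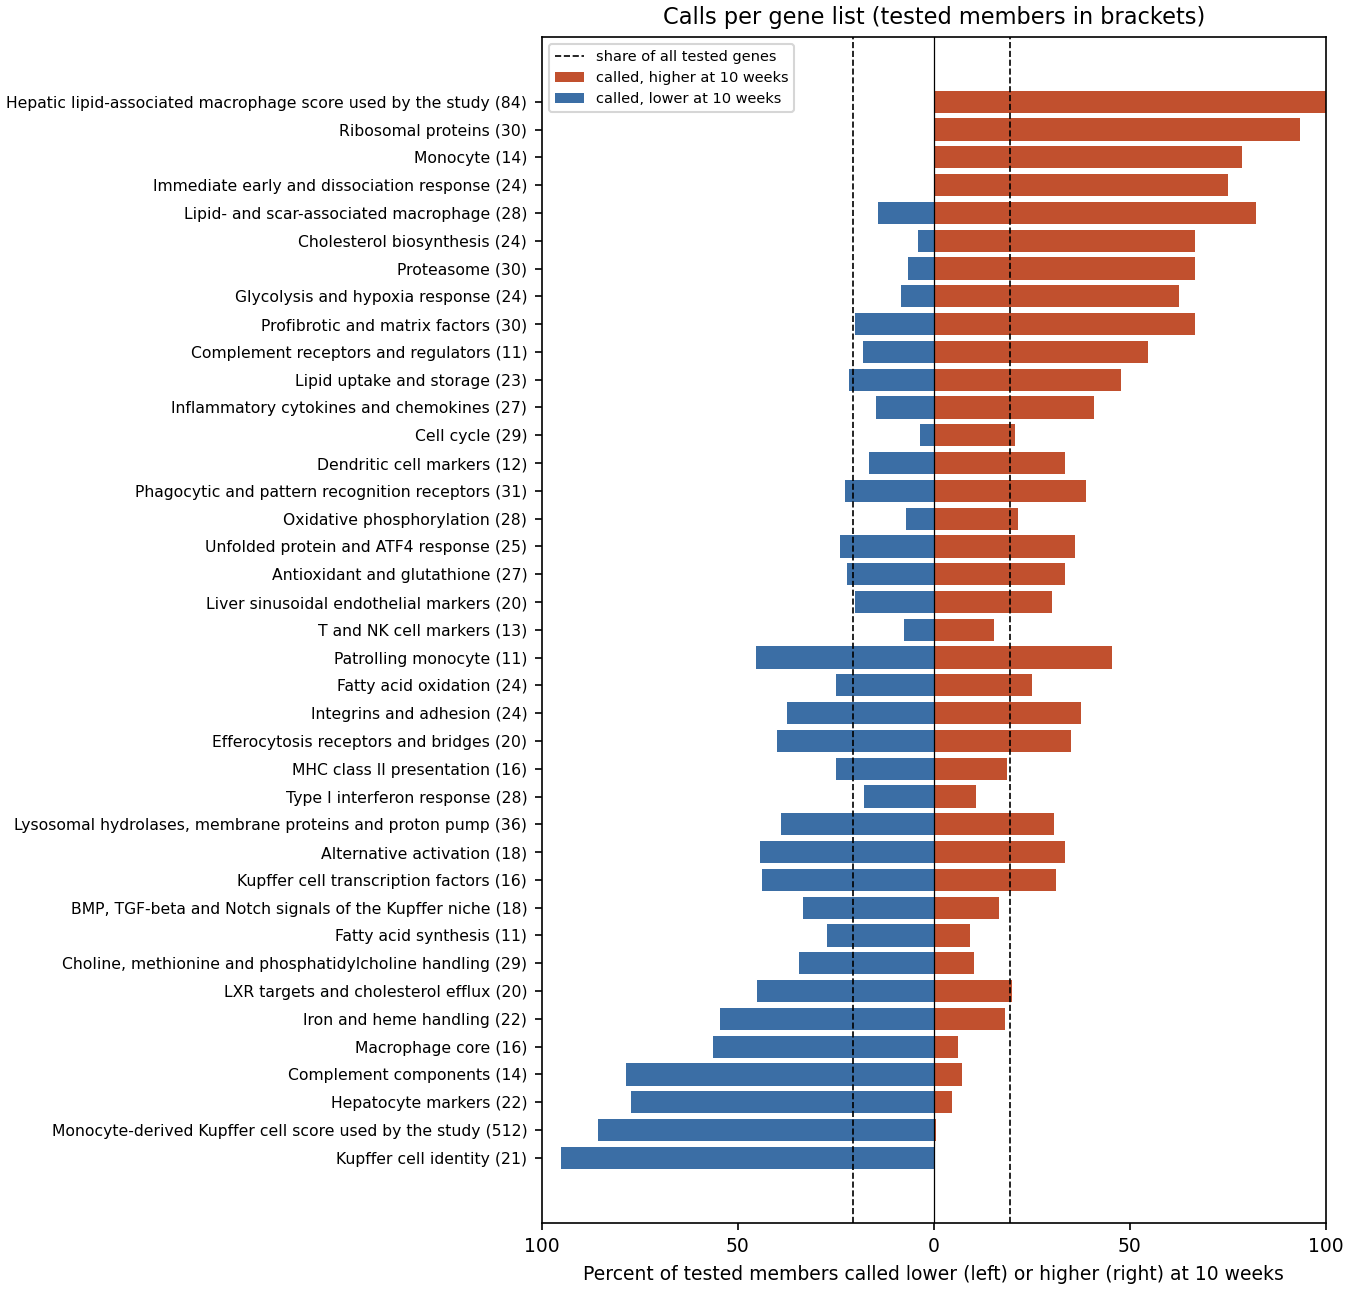
Number of tested members of each gene list that rose (to the right) or fell (to the left) at 10 weeks as a share of the members tested, in percent, with the number tested in brackets, the lists ordered by the difference between the shares, and dashed lines at the shares of all tested genes. Of the lists shown, the study's lipid-associated score and the ribosomal and monocyte genes lie at the top and Kupffer identity at the bottom.

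Markers of other cells were present, and among these lists the hepatocyte markers had the highest sum in every ND library. Hepatocyte markers fell for 17 of 22 and rose for 1 (median −1.69), and their sum was 1240, 788 and 1422 FPKM in ND and 477, 392 and 516 FPKM at 10 weeks, with Cps1 listed at 0 in all 10-week libraries. Fgb, a fibrinogen chain, fell from 43.8, 19.7 and 53.7 FPKM to 3.53, 1.73 and 1.78 FPKM, and Serpina3k by 3.15. The 1 that rose was Ass1, argininosuccinate synthase, an enzyme that macrophages also use, from 2.19, 2.22 and 0.000376 FPKM to 30.5, 25.4 and 27.5 FPKM. ND 2 held the least hepatocyte RNA of the ND libraries, and the hepatocyte sums of the groups did not overlap. How far hepatocyte RNA bears on other genes that both cells use was not tested.

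Endothelial markers rose for 6 of 20 (30%, against 19.3% of all tested genes) and fell for 4 (20%, against 20.6%). With a library left out 4 to 7 rises and 4 to 5 falls were called. The largest rise was that of Fcgr2b, which is also in the list of phagocytic receptors given above. The 4 falls, Cdh5, Stab2, Pecam1 and Dnase1l3, are genes that Kupffer cells also express. Pecam1 fell from 67.6, 89.8 and 55.8 FPKM to 10.9, 12.2 and 23.7 FPKM. The summed level was 316 to 340 FPKM in ND and 347, 317 and 505 FPKM at 10 weeks, and 10w 3 was the highest 10-week library for 18 of the 20. Stellate cell markers rose for 3 of 8 tested and fell for 2, with Dcn at 16.6, 8.6 and 7.36 FPKM at 10 weeks against 0.961, 1.82 and 3.80 FPKM, and 1 of the falls, that of Pdgfrb, lost its call without ND 2, ND 3 or any 10-week library. Of cholangiocyte markers 2 of 4 tested rose, 1 of them Spp1 itself and the other Krt18, whose call was lost without ND 1, ND 2, 10w 1 or 10w 3, and Krt19 was listed at 0 in all 6 libraries.

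Neutrophil markers rose for 4 of 7 tested and fell for 1, S100a9, with Camp, Ngp, Elane, Mpo, Stfa2 and Stfa3 listed at 0 in all 6 libraries and sums of 98.6 to 194 FPKM in ND and 142 to 287 FPKM at 10 weeks. Retnlg, a resistin-like protein, was at 48.9, 26.4 and 166 FPKM at 10 weeks and lost its call without ND 2, ND 3, 10w 1 or 10w 3. B cell markers fell for 5 of 7 and rose for none, with Pax5 listed at 0 in all 6 libraries. Without ND 1, ND 3 or 10w 1 only 3 of these falls were called, and 2 with a pseudocount of 0.1 or a filter of 5 FPKM, which tests fewer genes. T and NK cell markers rose for 2 of 13 and fell for 1, or for 2 without 10w 2, with sums of 49.9 to 56.8 FPKM in ND and 49.7, 79.6 and 103 FPKM at 10 weeks. Dendritic cell markers rose for 4 of 12 and fell for 2, and erythroid and platelet markers fell for 3 of 6, among them both alpha globin genes, while Pf4, platelet factor 4, which macrophages also make, rose from 105, 95.8 and 104 FPKM to 215, 203 and 215 FPKM. None of 4 mast cell and basophil markers was called by limma at the adjusted threshold, and 1 was called as lower without 10w 3.

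The library 10w 3 stood apart in several of these lists. Among the 1050 genes that fell at least 2-fold, 10w 3 was the highest 10-week library for 485, which is 48.5% of those not listed at 0 in all 3 of these libraries, against 36.4% of all genes tested and not so listed. In the list of lipid-associated macrophages 10w 2 was the highest for 20 of 28 genes and 10w 3 the lowest for 14. The gene with the largest spread at 10 weeks among those at 20 FPKM or more was Igfbp7, an insulin-like growth factor binding protein of endothelium, at 6.42, 23.7 and 52.2 FPKM. Without 10w 3 the count of genes called was 4326, with 802 rises and 1047 falls of at least 2-fold. At the other end, Atp5a1 was at 156, 171 and 162 FPKM in ND and 160, 164 and 164 FPKM at 10 weeks, and Acaa1a at 86.8, 82.4 and 84.8 FPKM and 86.5, 87.3 and 79.8 FPKM, with log2 differences of 0.00.

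Against 7 weeks of CDA-HFD the profile at 10 weeks differed in few genes. The comparisons of 7 and of 10 weeks with ND share the same control libraries, so only the direct comparison is tested here, and it called 15 of the 11783 genes (0.127%), 12 higher (0.102%) and 3 lower (0.0255%) at 10 weeks, while 1829 had an unadjusted p below 0.05. Of the 15, 9 had also changed against ND. S1pr5, a sphingosine phosphate receptor of natural killer cells and patrolling monocytes, was at 0.964, 0 and 0.877 FPKM in ND, at 1.75, 0.456 and 0.307 FPKM at 7 weeks and at 12.9, 10.5 and 10.3 FPKM at 10 weeks. Ace was at 14, 8.34 and 8.11 FPKM at 7 weeks and between 28.4 and 30.6 FPKM at 10 weeks. Both genes were thus higher at the later time, and the log2 differences between the times were 2.81 (SE 0.37, adjusted p = 0.0175) for S1pr5 and 1.49 (SE 0.24, adjusted p = 0.0419) for Ace.

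Art2b, an ADP-ribosyltransferase, and Themis2, an adaptor of receptor signalling (chr4:132781843-132796387), had fallen and lay closer to ND at 10 than at 7 weeks. Art2b was at 81.0, 74.2 and 76.9 FPKM in ND, at 1.36, 0.783 and 0.791 FPKM at 7 weeks and at 5.07, 4.07 and 6.59 FPKM at 10 weeks. Themis2 was at 154, 158 and 160 FPKM in ND, at 75.5, 80.8 and 80.4 FPKM at 7 weeks and at 107, 103 and 105 FPKM at 10 weeks (log2 difference between the times 0.41, SE 0.05, adjusted p = 0.013). It was the only 1 of the 15 that stayed called in all 9 fits with a library left out (adjusted p 0.0201 to 0.0419), and the others were called in 1 to 6 of them. All 15 lost the call in a fit without trend and robust (limma, adjusted p 0.0547 to 0.206, and 0.101 for Themis2). For Spp1, Gpnmb, Cd163 and Timd4 the log2 differences from ND at 7 and 10 weeks stood side by side at 6.29 and 6.19, 5.95 and 5.78, −4.55 and −5.69, and −3.95 and −5.22, and none of these genes was called between the times.

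**Figure D5:**
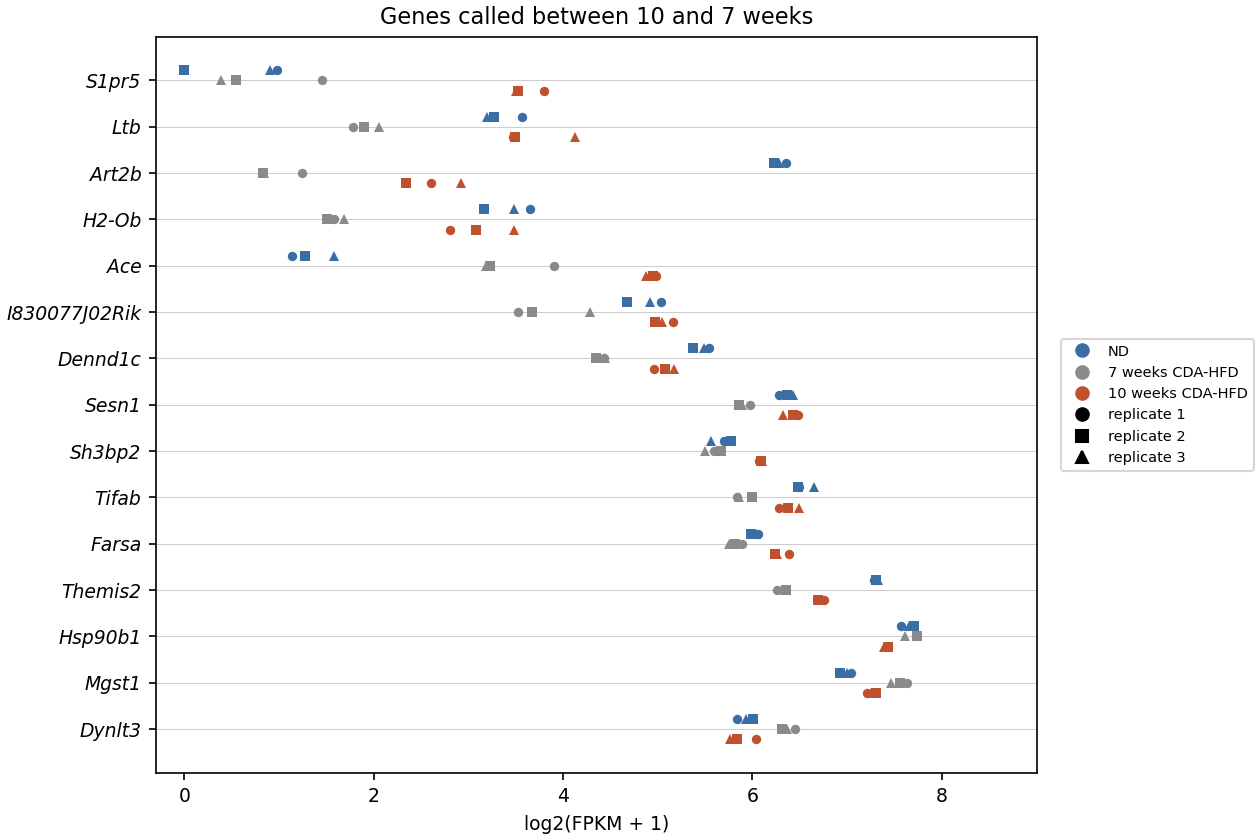
Level of the 15 genes called between 10 and 7 weeks in each of the 9 libraries, as log2(FPKM + 1), with ND in blue, 7 weeks in grey, 10 weeks in red and the replicate number as the symbol. S1pr5 and Ace are highest at 10 weeks, Art2b and Themis2 lie between 7 weeks and ND, and Ltb and Sesn1 are at 10 weeks near their ND level.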

How the data were processed

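The authors deposited 1 table of FPKM values, by gene symbol, which holds all 9 libraries, and each value column was matched to a sample by its label (0 were left unmapped). Libraries had been made with SMART-Seq HT and Nextera XT kits, which keep no strand, and read as single ends. The processing notes of the submitters list GRCm38 and the tools HISAT2 (2.2.1), featureCounts (2.0.1) and Trimmomatic (0.36.0). The study's methods name Picard for the removal of duplicates and speak of a conversion to TPM, but the columns sum to different totals (444816 to 458788), so the values were treated as FPKM. Of 24776 entries 1 was incomplete and left out, and entries sharing a symbol were summed (257 symbols), which gave 24312 genes. No count model was used.

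Depth was estimated from the steps that single reads make in low values (74.2% to 77.7% of them lay within 0.1 read of a whole number, with an assumed fragment of 200 bases). The upper limit follows as 2 start positions per base, and the correction for it inverts the expected loss of reads, holding values at 0.98 of the limit.

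limma (3.58.1, R 4.3.3, trend and robust) was run on log2(FPKM + 1) of all 9 libraries with 3 group means and no covariate. Genes at 1 FPKM or more in 3 or more libraries were tested two-sided and called at a Benjamini-Hochberg adjusted p below 0.05 over all of them. Fold changes refer to log2(FPKM + 1), a scale that shrinks those of low genes, and SE is the limma standard error. The fit was tested on simulated data. No source gives a batch.

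Genes were named by a rule: the 14 largest rises and falls among called genes that did not overlap and had a mean of at least 20 FPKM, up to 4 rises and 4 falls of each of 45 lists and members against their list's majority, up to 8 genes each for time, spread and steadiness, genes listed at 0 in 1 group, and genes the study followed. A few genes that met the rule are not reported here. The members and lists were chosen with earlier results of these data known. Remaining Kupffer identity genes, markers listed at 0, Gapdh, Cd68 and Ly6c1, and genes called between 10 and 7 weeks but not against ND, were named after their values were seen. Coordinates are from GENCODE M21. Alternatives were other filters, pseudocounts and scalings, the correction for the limit, a replicate block, a fit without trend and robust, and leaving out each library.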

Additional observations from a re-analysis of the deposited data

Results flagged for a closer look

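Of the 15 genes called between 10 and 7 weeks by the direct test of the difference (limma, adjusted p below 0.05 over 11783 genes), 9 had also been called at 10 weeks against ND. The log2 difference between the times was 2.81 for S1pr5, 1.65 for Art2b, 1.49 for Ace, 0.66 for Dennd1c, 0.50 for Sh3bp2, 0.47 for Farsa and 0.41 for Themis2, which were higher at 10 weeks, and −0.27 for Hsp90b1 and −0.30 for Mgst1, which were lower. With 1 library left out at a time, Themis2 stayed called in 9 of 9 fits, Art2b in 6, S1pr5 in 5, Ace in 3, Sh3bp2, Farsa, Hsp90b1 and Mgst1 in 2 each and Dennd1c in 1. All 9 lost the call in a fit without trend and robust (limma, adjusted p 0.0547 to 0.206). Dennd1c also lost its call against ND without ND 1 (adjusted p = 0.0506). No cause of these differences was tested.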

How the results depend on the processing

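The number of genes called against ND ranged from 4160 to 4760 of those tested over the other settings and from 3765 to 4661 with 1 library left out. Fitting the 6 libraries alone called 4457 genes, 4345 of them also among the 4706. Rises and falls of at least 2-fold numbered 989 in all with a pseudocount of 5 FPKM, 467 rises and 522 falls, since a larger pseudocount shrinks the change of low genes. The genes called in both comparisons, 9 in all, numbered 3 with a pseudocount of 0.1, 14 with a pseudocount of 5, 1 without trend and robust (none of the 9), and 2 to 11 with a library left out. The number moved by over 1.5 times without ND 1 (2), 10w 2 (2), 10w 3 (3), 7w 1 (4), 7w 2 (2) and 7w 3 (5), and leaving out the 7-week libraries was chosen after seeing the data.

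Replicate numbers did not pair the libraries: the deviations of same-numbered libraries correlated at −0.0621, 0.00901 and 0.0582, and the highest correlation, 0.0783, was between different numbers (ND 2 and 10w 1). With the replicate block 4589 genes were called, 4455 of them among the 4706, and 832 rises and 1064 falls reached 2-fold, with 13 genes called in both comparisons.

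Of 302 named genes 288 were called, and 226 kept their call and direction under every alternative. Correcting for the upper limit turned Ctss from −0.07 to 0.15. Low genes rest on few reads, and abundant genes are held down by the limit.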

Other observations

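Of the genes called between 10 and 7 weeks, 6 had not been called against ND. Ltb, lymphotoxin beta, was at 10.9, 8.68 and 8.19 FPKM in ND, at 2.45, 2.73 and 3.15 FPKM at 7 weeks and at 10.1, 10.3 and 16.4 FPKM at 10 weeks, and Sesn1, a sestrin induced by p53, was at 76.8, 81.4 and 85.1 FPKM, at 61.9, 56.9 and 58.5 FPKM and at 88.6, 85.0 and 79.1 FPKM. H2-Ob, a chain that restrains loading of MHC class II, was at 11.6, 7.95 and 10.1 FPKM in ND, at 1.99, 1.84 and 2.21 FPKM at 7 weeks and at 6.01, 7.43 and 10.2 FPKM at 10 weeks. The 7-week libraries lay below both other groups for all 3 genes. These genes were called in 1 to 6 of 9 fits with a library left out.

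Several genes at 20 FPKM or more at 10 weeks differed widely among the 3 libraries. Exosc6, a subunit of the RNA exosome, was at 7.31, 29.6 and 33.9 FPKM at 10 weeks against 40.5, 40.1 and 43.3 FPKM in ND, and Yrdc, a tRNA-modifying enzyme, at 7.99, 32 and 28.0 FPKM against 40.6, 32.9 and 43.1 FPKM, both lowest in 10w 1. Snx20 was at 5.89, 39.3 and 17.3 FPKM and was called as lower only when 10w 2 was left out (adjusted p = 0.0487).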
